A study of Mus musculus with 23 samples.

Results

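Cholesterol synthesis and its sterol regulation were followed here through 30 genes in mouse sciatic nerves (SNs). The genes were taken by name: 20 enzymes that lead from acetyl-CoA to cholesterol, 6 genes of the SREBP-2 sensor and 4 genes of cholesterol transport and receptor turnover. All 30 were found among the 43068 genes counted in the nerve crush libraries and the 22880 counted in the inducible knockout (iKO) libraries, and all 30 passed the filter on low counts in every comparison. Of these, 16 are also on the list of cholesterol synthesis genes that the study drew from the same crush libraries, so their direction after crush is not independent evidence; the other 14 are counted separately below.

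The series holds 23 RNA-seq libraries of whole SN from C57bl6 mice in 7 groups. In wild-type males operated at 2 months of age, the SN distal to a crush was taken 3 days post crush (dpc) (crushed, n = 4), beside the uninjured SN of the other side (contralateral, n = 4) and SNs of surgery controls (uncrushed, n = 3). In the iKO experiment, mice were P0-CreERT2 -/+ with either Dicer1 flox/flox (Dicer iKO, n = 3) or Dgcr8 flox/flox (Dgcr8 iKO, n = 3), and each was compared with P0-CreERT2 -/- animals carrying the same floxed alleles (Dicer control and Dgcr8 control, n = 3 each). Mutants and controls alike received tamoxifen at 8 to 10 weeks of age and were sampled 3 months post tamoxifen (mpT). Cre is driven by a promoter active in adult myelinating Schwann cells (SCs), so the other cells of the nerve keep the floxed genes, and mutant nerves sent for sequencing had been preselected for affected morphology.

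Myelin is rich in cholesterol, and SCs make most of its cholesterol themselves. Synthesis runs from acetyl-CoA through mevalonate to the isoprenoid farnesyl pyrophosphate, then to squalene, lanosterol and, by a series of demethylations, reductions and isomerisations, to cholesterol. The enzymes are controlled together by SREBP-2, a transcription factor made as a membrane protein of the endoplasmic reticulum; SCAP carries it to the Golgi for cleavage by a pair of proteases when sterols are low, and INSIG proteins hold it back when sterols are high.

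SREBP-2 binds sterol regulatory elements, often next to CCAAT boxes, which bind NF-Y. The 250 bases before the RefSeq start site are shown for 3 members, Hmgcs1 and Insig1 as enzyme and sensor genes that fell in every injury and mutant comparison and Ebp as an enzyme gene that passed the test in none, with the searched letters CACNCCAC (or TCACNCCAC, which contains it) and CCAAT, on either strand, in capitals (RefSeq, GRCm38.p6, written along the gene; Hmgcs1 at chr13:119690101-119690350 on the plus strand, Insig1 at chr5:28071162-28071411 on the plus strand and Ebp at chrX:8193513-8193762 on the minus strand).
Hmgcs1: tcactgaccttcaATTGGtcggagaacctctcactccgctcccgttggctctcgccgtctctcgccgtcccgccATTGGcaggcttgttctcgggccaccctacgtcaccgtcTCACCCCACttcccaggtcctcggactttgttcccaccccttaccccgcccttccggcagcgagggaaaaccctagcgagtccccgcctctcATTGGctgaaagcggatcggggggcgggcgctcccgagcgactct
Insig1: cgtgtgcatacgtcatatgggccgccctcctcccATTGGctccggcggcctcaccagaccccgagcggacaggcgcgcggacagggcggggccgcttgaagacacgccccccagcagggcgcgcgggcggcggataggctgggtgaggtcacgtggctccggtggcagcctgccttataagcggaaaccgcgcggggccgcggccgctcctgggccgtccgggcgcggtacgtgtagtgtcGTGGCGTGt
Ebp: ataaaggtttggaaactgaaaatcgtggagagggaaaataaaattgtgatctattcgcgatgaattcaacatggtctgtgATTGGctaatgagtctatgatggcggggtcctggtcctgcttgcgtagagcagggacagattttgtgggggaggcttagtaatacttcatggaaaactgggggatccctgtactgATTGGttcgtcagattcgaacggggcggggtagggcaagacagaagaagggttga
The Hmgcs1 window held TCACNCCAC at position -137 from the start and 3 CCAAT boxes, all on the minus strand. The Insig1 window held CACNCCAC at -9 and a CCAAT box at -216, and the Ebp window held CCAAT boxes at -170 and -55 and no sterol element of these letters. RefSeq promoter windows, 250 bases before to 50 after the start, were matched for 25 of the 30 members, 31 windows in all. TCACNCCAC stood in 1 of the 31, against 1.24% of all 32851 promoters, and CACNCCAC in 3 (Acat2, Hmgcs1 and Insig1), against 6.24%. CCAAT stood in 21 of the 31, against 37.4% of all promoters, and GGGCGG, the letters bound by Sp1, in 25, against 35.7%. Counted by gene, 21 of the 25 matched members held CCAAT, against 41.1% of 27025 genes. The 21 took in Ggps1, Lbr and Ebp, which did not fall after crush, and the 4 without it were Acat2, Scap, Mbtps1 and Mbtps2. A match to these letters describes the window and is not evidence of binding.

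Libraries held 6617716 to 12806066 counts in the crush experiment and 5594859 to 10143244 in the iKO experiment, so that a count of 0 would have allowed a level of up to 0.453 and 0.536 CPM (counts scaled to library size; 3 counts in the shallowest library); every member stood above this in every library. Dicer1 stood at 81.3 to 82.1 CPM in Dicer iKO and 87.4 to 90.5 in control SNs, and Dgcr8 at 39.4 to 54.0 CPM in Dgcr8 iKO and 35.4 to 41.8 in control SNs. Counts over a whole gene do not measure the loss of floxed exons in a part of the cells, so these values check nothing about the deletion. All 9 myelinating SC markers were present in every group. In the crushed SNs all 9 were called lower, the median of their log2 fold changes being -4.17 when set against uncrushed SNs, while 4 of 4 tested repair SC markers and 8 of 8 macrophage markers were called higher. Called higher in the Dgcr8 iKO were 4 of 4 repair SC, 6 of 8 macrophage and 2 of 4 fibroblast markers, and in the Dicer iKO 4 of 4, 5 of 8 and 2 of 4. Of 4 neutrophil markers S100a8 and S100a9 stayed under 1 CPM in every library, while Retnlg was called higher in both crush comparisons and the Dgcr8 iKO and Csf3r against contralateral SNs and in both mutants; their summed level was 4.55 to 12.6 CPM in uninjured, 19.2 to 34.6 in crushed, 1.53 to 6.18 in iKO control and 16.4 to 29.0 in iKO SNs. The 4 skeletal muscle markers stayed under 1 CPM in the crush experiment. Their summed level was 3.31 to 10.9 CPM in Dicer control and 1.38 to 2.59 in Dicer iKO SNs. It was 1.5 to 3.94 CPM in Dgcr8 control and 0.7 to 2.48 in Dgcr8 iKO SNs. The 1 muscle marker tested in the Dicer iKO was called lower (log2 fold change -2.12). The summed level of 7 adipocyte markers was 29.0 to 40.3 CPM in uncrushed, 9.34 to 17.1 in contralateral, 1.83 to 13.6 in crushed, 61.9 to 219.9 in Dicer control, 19.8 to 81.2 in Dicer iKO, 72.7 to 103.4 in Dgcr8 control and 6.61 to 94.1 in Dgcr8 iKO SNs. That of 4 endothelial markers was 115.5 to 135 CPM in uninjured and 136 to 167 in crushed SNs, and in the mutants it lay below the controls (138 to 149 against 206 to 228 for Dicer and 139 to 189.8 against 215 to 252 for Dgcr8). The part of these cells in the results below was not tested. Among the Dicer controls, replicate 1 had the lowest summed level of the sterol enzymes (1927 CPM, against 2511 and 2554) and of the myelin markers and the highest of the macrophage (688 CPM, against 456 and 231) and fibroblast markers. In whole-nerve RNA, fewer cells of a type and less RNA per cell cannot be told apart.

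At 3 dpc most of the pathway was downregulated, with 17 of the 20 enzymes called lower against uncrushed and against contralateral SNs, and at 3 mpT 14 of the 20 were called lower in the Dgcr8 and 8 in the Dicer iKO. Called here means an adjusted p of at most 0.05 in edgeR's quasi-likelihood test and a fold of at least 2; "rose" and "fell" are used for single genes with an adjusted p of at most 0.05, whatever the fold, and ± after a log2 fold change is its standard error. Against uncrushed SNs, 20 of 30 members were called lower and 0 higher, where 21.1% of the 17433 genes tested were called lower and 15.3% higher. Against contralateral SNs, 21 were called lower and 0 higher, where 13.6% of 16667 genes were called lower and 14.6% higher. The median log2 fold change of the members was -2.24 against uncrushed and -2.55 against contralateral SNs, beside -0.032 and -0.059 over all genes tested. All 16 members on the study's own list were called in both comparisons, as that list requires. Of the 14 others, 4 (Acat2, Cyp51, Srebf2 and Stard4) were called lower against uncrushed SNs and, with Scap, 5 against contralateral SNs.

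In the Dgcr8 iKO, 17 members were called lower and 0 higher, where 6.99% of 13252 genes were called lower and 13.4% higher, and the median log2 fold change of the members was -1.10 beside -0.014 over all genes. In the Dicer iKO, 11 were called lower and 0 higher, where 1.64% of 13045 genes were called lower and 7.37% higher, with a member median of -0.63 beside -0.008. All 11 were among the 17, and all 17 were among the 20 called lower in both crush comparisons; Acat2, Mvk and Dhcr7 were the 3 called after crush in both comparisons but in no mutant. The Dicer count rested on single libraries: it was 3 without Dicer control replicate 2, 7 without Dicer control replicate 3, 2 without Dicer iKO replicate 2 and 1 without Dicer iKO replicate 3, and 14 without Dicer control replicate 1. Of the 17 members that fell or rose in the Dicer iKO at an adjusted p of at most 0.05, whatever the fold, 16 (all but Lbr) lost that in at least 1 alternative, most often without Dicer control replicate 2, Dicer iKO replicate 2 or Dicer iKO replicate 3 (adjusted p = 0.051 to 0.169). The Dgcr8 count stayed between 14 and 17 whichever replicate was left out, and the crush counts at 20 against uncrushed and 20 or 21 against contralateral SNs.

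**Figure D1:**
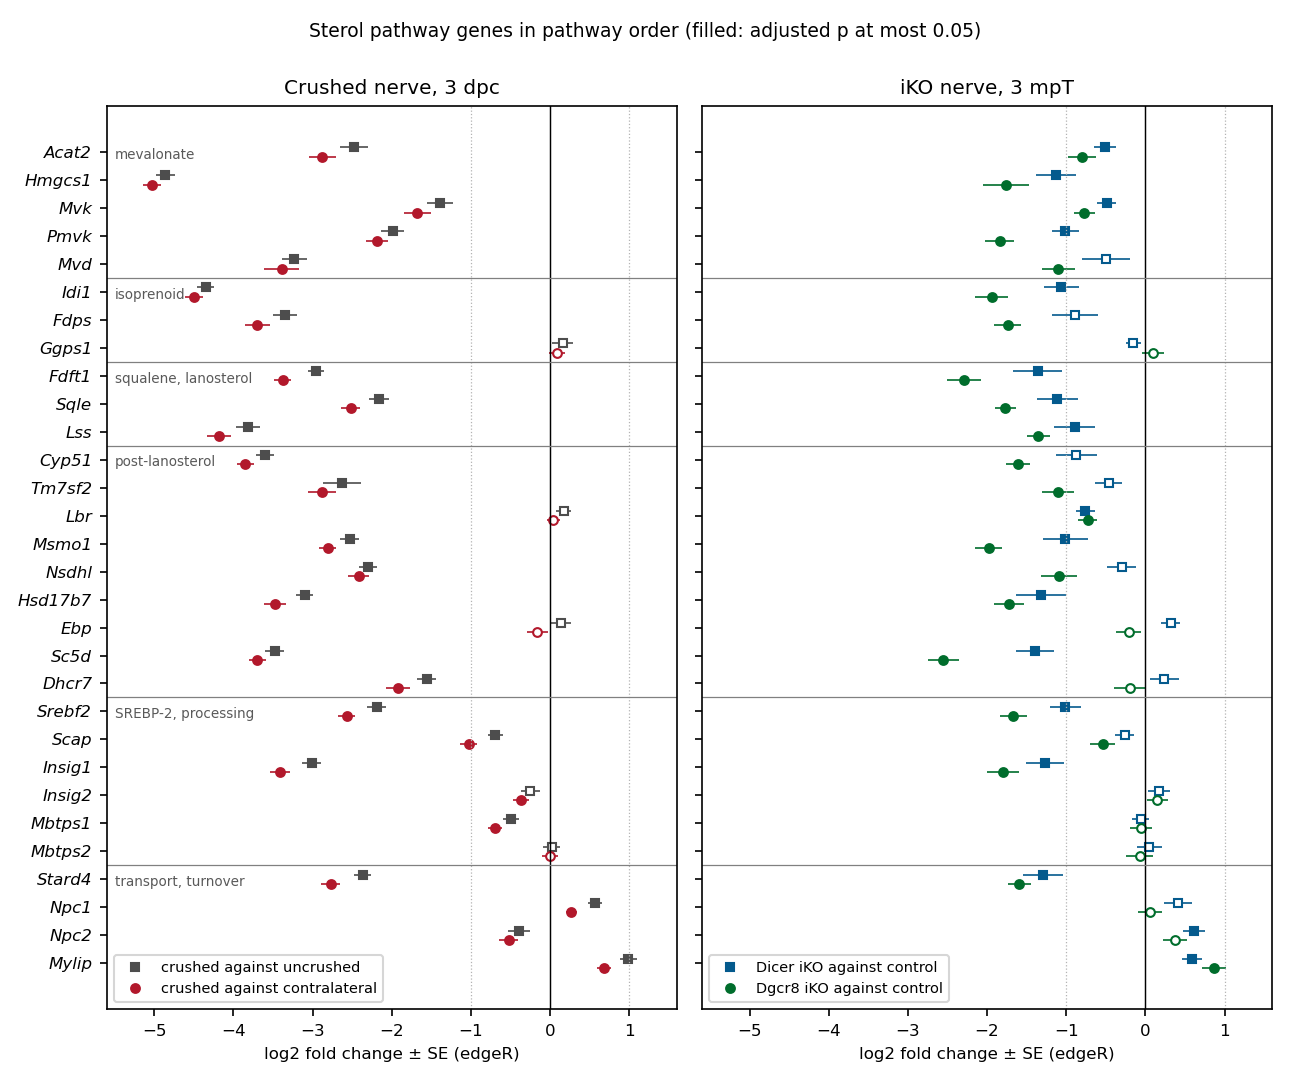
Log2 fold change (x axis, edgeR, bars: standard error) of the 30 members in pathway order, for crushed SNs at 3 dpc on the left and iKO SNs at 3 mpT on the right; filled symbols have an adjusted p of at most 0.05 and dotted lines mark a 2-fold change. Hmgcs1, Idi1 and Lss lie farthest to the left after crush, Sc5d and Fdft1 in the Dgcr8 iKO, and Ggps1 and Ebp lie near 0 with open symbols in both panels.

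The mevalonate stage fell at every step in the crushed SNs, and in the Dgcr8 iKO as well. All 5 enzymes were called lower in both crush comparisons, 3 of 5 in the Dgcr8 iKO and 2 of 5 in the Dicer iKO. Acat2, the cytosolic thiolase that joins acetyl-CoA units, stood at 28.3, 30.8 and 25.3 CPM in uncrushed, 35.3, 42.5, 29.5 and 31.9 in contralateral and 4.33, 6.18, 5.22 and 3.02 in crushed SNs. It stood at 28.4, 36.6 and 32.2 CPM in Dicer control, 25.3, 20.9 and 22 in Dicer iKO, 46, 35.8 and 41.3 in Dgcr8 control and 28.3, 24.6 and 17.7 in Dgcr8 iKO SNs. Every crushed or mutant library lay below every library of its controls (log2 fold change -2.48 ± 0.18, adjusted p = 1.42e-07 against uncrushed), and in the mutants the decrease was under 2-fold (-0.51 ± 0.14 in Dicer and -0.80 ± 0.18, adjusted p = 0.00359 in Dgcr8 iKO).

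Hmgcs1, which makes HMG-CoA, carried the highest per-length level of all members in uncrushed SNs and had the lowest fold change after crush. Its libraries gave 969, 1205 and 1104 CPM in uncrushed, 1225, 1252, 1075 and 1067 in contralateral and only 37, 36.3, 36.4 and 30.4 in crushed SNs. In the iKO experiment Hmgcs1 counted 821, 983 and 985 CPM in Dicer control, 604, 367 and 297 in Dicer iKO, 1336, 970.4 and 1186 in Dgcr8 control and 278, 534 and 224 in Dgcr8 iKO SNs. No library of a crushed or mutant group reached its controls. After crush 3.21% ± 0.282 (SD, n = 4) of the uncrushed mean was left, in the Dicer iKO 45.5% ± 17.3 and in the Dgcr8 iKO 29.7% ± 14.2 (SD, n = 3 each) of the control mean. The log2 fold changes were -4.86 ± 0.12, adjusted p = 6.53e-11 against uncrushed, -5.03 ± 0.11, adjusted p = 3.23e-13 against contralateral, -1.13 ± 0.25, adjusted p = 0.02 in Dicer and -1.76 ± 0.29, adjusted p = 0.000624 in Dgcr8 iKO SNs. Dgcr8 iKO replicate 2 and Dicer iKO replicate 1 kept the highest levels of their groups.

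Mvk, mevalonate kinase, changed least within this stage after crush. It stood at 21.4, 18.3 and 16.1 CPM in uncrushed, 19.3, 27.9, 20 and 18.4 in contralateral and 6.81, 7.16, 7.79 and 4.81 in crushed SNs. In the mutants Mvk stood at 15.8, 15.7 and 16.7 CPM in Dicer iKO against 21.3, 23.1 and 23.8 in control and at 16.2, 16.9 and 14.7 in Dgcr8 iKO against 26.3, 27.6 and 27.4 in control SNs. Contralateral replicate 2 was the highest crush-experiment library, the groups did not overlap, and Mvk fell in all 4 comparisons (-1.39 ± 0.16, adjusted p = 1.26e-05 against uncrushed, -0.49 ± 0.12, adjusted p = 0.0264 in Dicer and -0.77 ± 0.13, adjusted p = 0.000864 in Dgcr8 iKO). The Dicer decrease of Mvk was lost with any of 5 replicates left out (all but Dicer control replicate 1; adjusted p = 0.0541 to 0.108 over these and the replicate block).

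Pmvk, the next kinase, had, within this stage, the mutant fold change nearest to that of crush. Its levels were 42, 33.7 and 35.5 CPM in uncrushed, 39.5, 46.5, 35.6 and 38.3 in contralateral and 10.9, 8.38, 8.33 and 6.97 in crushed SNs. They were 40.5, 51.2 and 63.8 in Dicer control, 26.8, 26.4 and 23.8 in Dicer iKO, 85.9, 78 and 70.7 in Dgcr8 control and 18.8, 29 and 17.7 in Dgcr8 iKO SNs. The groups did not overlap in any of these, and Pmvk fell against contralateral SNs (-2.19 ± 0.14, adjusted p = 3.24e-09), in the Dicer iKO (-1.01 ± 0.17, adjusted p = 0.00827) and in the Dgcr8 iKO (-1.84 ± 0.18, adjusted p = 2.32e-05). The crush and Dgcr8 effects on Pmvk did not differ past the threshold (-0.31 ± 0.23, adjusted p = 0.314). Mvd, the decarboxylase that closes the stage, counted 26.4, 21.7 and 22.2 CPM in uncrushed, 21.6, 35.2, 20.4 and 21.2 in contralateral and 2.33, 2.6, 2.66 and 1.7 in crushed SNs. Mvd in the iKO experiment counted 8.47, 19.8 and 16.8 CPM in Dicer control, 11.6, 9.32 and 10.8 in Dicer iKO, 21.7, 21.8 and 24.8 in Dgcr8 control and 11.8, 12.9 and 7.0 in Dgcr8 iKO SNs. Dicer control replicate 1 lay below all 3 Dicer iKO libraries and the Dicer difference did not pass the test (-0.50 ± 0.30, adjusted p = 0.268), while Mvd fell in the Dgcr8 iKO (-1.10 ± 0.21, adjusted p = 0.00154) and after crush (-3.23 ± 0.16, adjusted p = 6.69e-09 against uncrushed). Without Dicer control replicate 1 it fell in the Dicer iKO also (adjusted p = 0.0223).

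In the isoprenoid stage the enzymes that lead to sterols, Idi1 and Fdps, fell after crush and in the Dgcr8 iKO, and the branch enzyme Ggps1 passed the test in none of the main fits. Idi1, isopentenyl diphosphate isomerase, stood at 220.1, 228 and 217 CPM in uncrushed, 231, 259.5, 213 and 225 in contralateral and 10.7, 11.1, 9.89 and 8.67 in crushed SNs. Idi1 stood at 125, 172 and 169 in Dicer control, 101, 63.3 and 58.8 in Dicer iKO, 204, 169 and 210.4 in Dgcr8 control and 48.6, 68.2 and 35.5 in Dgcr8 iKO SNs. It was the member with the second-lowest fold change after crush (-4.35 ± 0.11, adjusted p = 4.97e-11 against uncrushed), with 4.56% ± 0.494 (SD, n = 4) of the uncrushed mean left, and it was called lower in both mutants (-1.06 ± 0.22, adjusted p = 0.0171 in Dicer and -1.94 ± 0.21, adjusted p = 3.91e-05 in Dgcr8 iKO). Fdps, which makes farnesyl pyrophosphate, counted 141, 136 and 122 CPM in uncrushed, 158, 195, 142 and 138 in contralateral and 15.9, 10.1, 12.5 and 9.8 in crushed SNs. Fdps counted 82.7, 136 and 114 in Dicer control, 88.2, 48 and 43.2 in Dicer iKO, 221, 191 and 168 in Dgcr8 control and 61.8, 67.5 and 44.1 in Dgcr8 iKO SNs. Dicer iKO replicate 1 lay above Dicer control replicate 1, and the Dicer difference missed the threshold (-0.89 ± 0.29, adjusted p = 0.0679), passing it in 4 of the alternatives tried (adjusted p = 0.0139 to 0.0352), while Fdps fell after crush (-3.35 ± 0.15, adjusted p = 3.19e-09) and in the Dgcr8 iKO (-1.74 ± 0.17, adjusted p = 2.33e-05).

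Ggps1 draws the same isoprenoid off to geranylgeranyl pyrophosphate, used to anchor small GTPases. Its levels were 12.7, 17 and 15.4 CPM in uncrushed, 15.2, 14.4, 14.7 and 14.8 in contralateral and 14.7, 17.5, 14.6 and 15.4 in crushed SNs. For Ggps1 the iKO experiment gave 41.5, 37.2 and 39.3 CPM in Dicer control, 36.2, 37.1 and 33.1 in Dicer iKO, 30, 30.5 and 38.1 in Dgcr8 control and 37, 33.7 and 35 in Dgcr8 iKO SNs. Crushed and control libraries overlapped, the Dicer iKO libraries lay just below their controls, and in the main fits no comparison passed the test (0.16 ± 0.13, adjusted p = 0.282 against uncrushed, -0.15 ± 0.10, adjusted p = 0.346 in Dicer and 0.10 ± 0.14, adjusted p = 0.592 in Dgcr8 iKO). With no filter on counts Ggps1 passed against uncrushed SNs (adjusted p = 0.0469). An exon of Ggps1 overlaps Arid4b on the opposite strand over 257 bases, and the strand setting of the counting is not given in the sources used here.

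The squalene and lanosterol stage, the committed entry into sterols, fell as a whole. All 3 enzymes were called lower after crush and in the Dgcr8 iKO and 2 of 3 in the Dicer iKO. Fdft1, squalene synthase, stood at 168, 208 and 201 CPM in uncrushed, 237, 278, 237 and 211 in contralateral and 20.7, 24.4, 24.9 and 22 in crushed SNs. Fdft1 in the iKO experiment stood at 76.8, 118 and 120.0 CPM in Dicer control, 61.8, 33.3 and 27.5 in Dicer iKO, 172, 151 and 169 in Dgcr8 control and 30.5, 46.5 and 23.3 in Dgcr8 iKO SNs. Groups did not overlap, and in the mutants Fdft1 fell more than most members (-1.36 ± 0.31, adjusted p = 0.0216 in Dicer and -2.29 ± 0.21, adjusted p = 1.5e-05 in Dgcr8 iKO; -2.96 ± 0.10, adjusted p = 4.54e-10 against uncrushed). Fdft1 shares 774 exon bases with Ctsb on the opposite strand, a lysosomal protease gene at a mean of 489 CPM in the crush and 1405 CPM in the iKO libraries.

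Sqle, squalene epoxidase and a rate-limiting step, fell the least of this stage after crush. It counted 73.4, 101 and 98.6 CPM in uncrushed, 109, 130.3, 98.8 and 96.7 in contralateral and 21.7, 17.2, 19.4 and 16.7 in crushed SNs. Sqle counted 60, 77.3 and 73 in Dicer control, 47.5, 24.2 and 25.3 in Dicer iKO, 109.8, 112 and 102 in Dgcr8 control and 29.8, 36.3 and 28.7 in Dgcr8 iKO SNs. All 3 Dgcr8 iKO libraries lay within 28.7 to 36.3 CPM, the groups did not overlap, and the log2 fold changes were -2.16 ± 0.13, adjusted p = 3.06e-08 against uncrushed, -1.11 ± 0.26, adjusted p = 0.0229 in Dicer and -1.77 ± 0.13, adjusted p = 3.87e-06 in Dgcr8 iKO SNs. Lss, which cyclises squalene epoxide to lanosterol, gave 94.5, 105 and 92.5 CPM in uncrushed, 120.1, 139, 104 and 108 in contralateral and 8.02, 7.16, 5.77 and 4.52 in crushed SNs. Lss gave 65.6, 101 and 101 CPM in Dicer control, 66.6, 38.6 and 38.6 in Dicer iKO, 98.1, 103 and 103 in Dgcr8 control and 45.6, 41.1 and 32.8 in Dgcr8 iKO SNs. Lss kept 6.54% ± 1.58 (SD, n = 4) of the uncrushed mean after crush (-3.82 ± 0.15, adjusted p = 8.79e-10), but 39.2% ± 6.42 (SD, n = 3) of the control mean in the Dgcr8 iKO (-1.35 ± 0.14, adjusted p = 2.73e-05). Dicer iKO replicate 1 overlapped Dicer control replicate 1, and the Dicer decrease was under 2-fold (-0.89 ± 0.26, adjusted p = 0.0444).

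**Figure D2:**
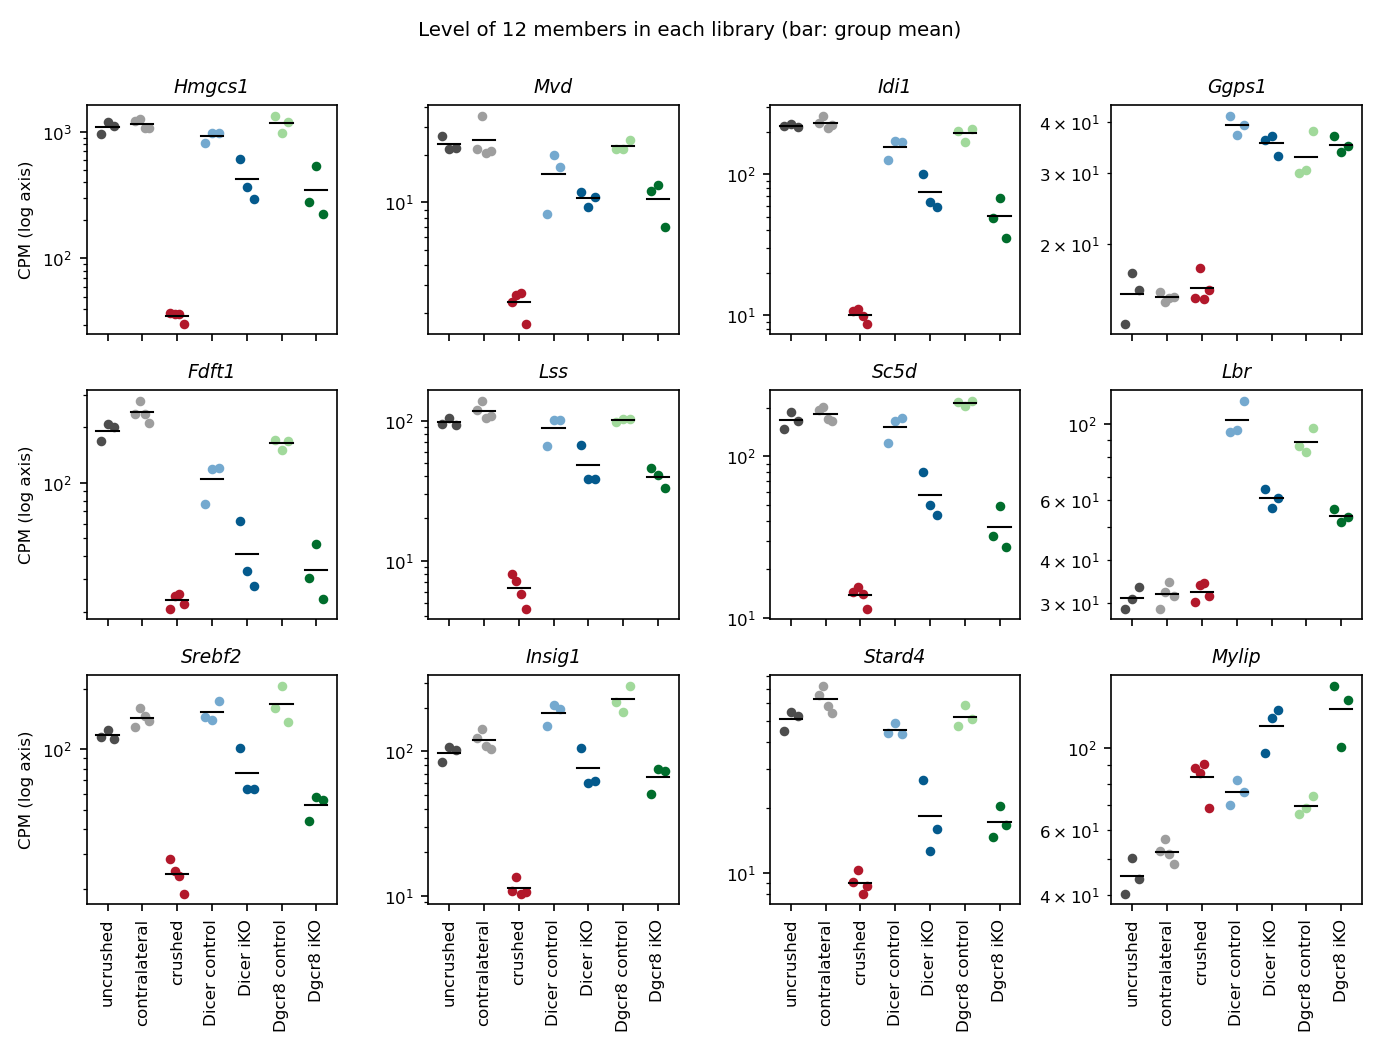
Level of 12 members (CPM, log axis) in each of the 23 libraries by group; points are libraries and bars are group means. Crushed libraries stand far below uncrushed and contralateral libraries for the pathway enzymes, Srebf2, Insig1 and Stard4. They overlap them for Ggps1 and Lbr, and stand above them for Mylip. For most enzymes the mutant libraries stand below their own controls. The labels name different library kits for the crush and iKO experiments, so levels are compared only within an experiment.

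Of the 9 post-lanosterol enzymes, 7 were called lower in both crush comparisons, 6 in the Dgcr8 iKO and 3 in the Dicer iKO. Cyp51, lanosterol demethylase and first of the stage, stood at 153, 179 and 154 CPM in uncrushed, 184, 206, 162 and 170.0 in contralateral and 13.9, 12.5, 12.1 and 10.9 in crushed SNs. Cyp51 stood at 108, 150.2 and 145 in Dicer control, 107, 58.8 and 54.1 in Dicer iKO, 199, 179 and 166 in Dgcr8 control and 58.5, 70.4 and 48.9 in Dgcr8 iKO SNs. The groups did not overlap, Cyp51 fell after crush (-3.60 ± 0.11, adjusted p = 1.98e-10 against uncrushed) and in the Dgcr8 iKO (-1.61 ± 0.15, adjusted p = 1.67e-05), and the Dicer difference missed the threshold (-0.87 ± 0.26, adjusted p = 0.0523), passing it in 6 of the alternatives tried (adjusted p = 0.00764 to 0.0498). Cyp51 shares 166 exon bases with Akap9 on the opposite strand, at a mean of 280.3 CPM in the crush libraries, far above the 10.9 to 13.9 CPM of Cyp51 in crushed SNs, and at 171 CPM in the iKO libraries.

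The next step, reduction of the double bond that this demethylation leaves, can be made by either Tm7sf2 or Lbr, and these differed after crush. Tm7sf2 counted 18.6, 15.3 and 11.1 CPM in uncrushed, 17.5, 19.9, 16.3 and 14.3 in contralateral and 1.92, 3.17, 2.38 and 1.6 in crushed SNs. Tm7sf2 in the iKO experiment counted 10.6, 13.5 and 13.6 CPM in Dicer control, 9.32, 9.49 and 8.58 in Dicer iKO, 23.7, 22 and 18.8 in Dgcr8 control and 12, 10.8 and 7.23 in Dgcr8 iKO SNs. It fell after crush (-2.63 ± 0.24, adjusted p = 1.14e-06 against uncrushed) and in the Dgcr8 iKO (-1.10 ± 0.20, adjusted p = 0.00119), and was lower without passing the test in the Dicer iKO (-0.46 ± 0.17, adjusted p = 0.0978); 532 of its exon bases are shared with Vps51 on the same strand, between which RSEM divides reads. Lbr, which is also the lamin B receptor of the nuclear envelope, gave 28.8, 30.8 and 33.3 CPM in uncrushed, 28.8, 32.2, 34.5 and 31.5 in contralateral and 30.2, 33.7, 34.2 and 31.3 in crushed SNs. Lbr gave 94.9, 95.7 and 117 CPM in Dicer control, 64.4, 56.6 and 60.6 in Dicer iKO, 86.3, 82.7 and 97.3 in Dgcr8 control and 56.3, 51.6 and 53.5 in Dgcr8 iKO SNs. Crushed and uninjured libraries overlapped (0.17 ± 0.09, adjusted p = 0.108 against uncrushed, 0.04 ± 0.08, adjusted p = 0.667 against contralateral), whereas every mutant library lay below its controls and Lbr fell, by less than 2-fold, in Dicer (-0.76 ± 0.12, adjusted p = 0.00591) and Dgcr8 iKO (-0.73 ± 0.12, adjusted p = 0.00056). With no filter on counts Lbr passed against uncrushed SNs (adjusted p = 0.0163). Lbr was the member whose crush effect lay above the mutant effect in the test of the difference (0.84 ± 0.13, adjusted p = 0.000137 against Dicer and 0.81 ± 0.12, adjusted p = 6.57e-05 against Dgcr8).

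The later demethylations of the sterol ring take Msmo1, Nsdhl and Hsd17b7, and all of these were called lower after crush and in the Dgcr8 iKO. Msmo1, the oxidase, stood at 197, 245 and 223 CPM in uncrushed, 252, 287, 249 and 226 in contralateral and 41.8, 32.1, 34.4 and 34.1 in crushed SNs. Msmo1 stood at 116, 183 and 204 in Dicer control, 116, 69.7 and 63.5 in Dicer iKO, 295, 245 and 258 in Dgcr8 control and 69, 81.8 and 51.7 in Dgcr8 iKO SNs. No groups overlapped, although Dicer control replicate 1 and Dicer iKO replicate 1 lay next to each other, and Msmo1 fell in every comparison with controls (-2.53 ± 0.12, adjusted p = 4.16e-09 against uncrushed, -1.01 ± 0.28, adjusted p = 0.0387 in Dicer and -1.98 ± 0.17, adjusted p = 1.08e-05 in Dgcr8 iKO). Nsdhl, the decarboxylating dehydrogenase, counted 46.5, 54.3 and 46.5 CPM in uncrushed, 53.3, 60.9, 41.2 and 45.6 in contralateral and 9.14, 10.2, 8.61 and 9.14 in crushed SNs. Nsdhl counted 23.6, 24.3 and 29.5 in Dicer control, 25.8, 18.5 and 18.1 in Dicer iKO, 41.5, 38.1 and 42.7 in Dgcr8 control and 21.9, 24 and 11.2 in Dgcr8 iKO SNs. It fell after crush (-2.30 ± 0.11, adjusted p = 4.19e-09) and in the Dgcr8 iKO (-1.09 ± 0.23, adjusted p = 0.00251), with Dgcr8 iKO replicate 3 lowest, but Dicer iKO replicate 1 lay among the Dicer controls (-0.30 ± 0.18, adjusted p = 0.253). Hsd17b7, the ketoreductase, gave 54.6, 65.5 and 66.8 CPM in uncrushed, 72.4, 93, 69.6 and 67.8 in contralateral and 7.46, 6.35, 7.14 and 5.84 in crushed SNs. Hsd17b7 gave 53, 95.6 and 109.7 CPM in Dicer control, 47.8, 30.4 and 25.2 in Dicer iKO, 94.5, 95.7 and 118 in Dgcr8 control and 29.3, 40.5 and 23.9 in Dgcr8 iKO SNs. It fell in all of these without overlap (-3.10 ± 0.11, adjusted p = 6.27e-10 against uncrushed, -1.32 ± 0.32, adjusted p = 0.0252 in Dicer and -1.72 ± 0.19, adjusted p = 3.89e-05 in Dgcr8 iKO).

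The last enzymes, Ebp, Sc5d and Dhcr7, were unlike each other. Ebp, the sterol isomerase, ranged from 14.1 to 20.7 CPM in the uninjured and 12.7 to 17.5 in the crushed SNs, which overlapped (0.14 ± 0.13, adjusted p = 0.356 against uncrushed, -0.16 ± 0.13, adjusted p = 0.291 against contralateral), and it passed the test in neither mutant (0.32 ± 0.12, adjusted p = 0.108 in Dicer and -0.21 ± 0.16, adjusted p = 0.288 in Dgcr8 iKO), although the 3 Dicer iKO libraries, at 20.9 to 22.8 CPM, lay above the Dicer controls, at 16.6 to 19.1. Sc5d, the desaturase that follows, stood at 148, 187 and 165 CPM in uncrushed, 193, 201, 169 and 165 in contralateral and 14.4, 15.6, 14 and 11.4 in crushed SNs. Sc5d stood at 120.4, 166 and 172 in Dicer control, 79.6, 50 and 43.6 in Dicer iKO, 218, 204 and 220.1 in Dgcr8 control and 32.2, 49.5 and 27.4 in Dgcr8 iKO SNs. Of the 30 members it had the lowest fold change in both mutants (-1.40 ± 0.24, adjusted p = 0.00871 in Dicer and -2.55 ± 0.20, adjusted p = 5.08e-06 in Dgcr8 iKO), with 17% ± 5.44 (SD, n = 3) of the control mean left in the Dgcr8 iKO, and after crush it fell also (-3.48 ± 0.12, adjusted p = 3.05e-10 against uncrushed). Dhcr7, the reductase that ends the pathway, counted 20.1, 20.4 and 22.4 CPM in uncrushed, 23.6, 31.6, 20.4 and 25.2 in contralateral and 6.57, 7.24, 6.05 and 6.5 in crushed SNs. Dhcr7 counted 9.62, 9.92 and 10.4 in Dicer control, 9.85, 13.5 and 12.2 in Dicer iKO, 16.8, 24.1 and 14.8 in Dgcr8 control and 14.2, 15.9 and 18.2 in Dgcr8 iKO SNs. All crushed libraries lay below the uninjured ones (-1.56 ± 0.12, adjusted p = 2.52e-07 against uncrushed), while mutant and control libraries overlapped and neither mutant passed the test (0.24 ± 0.18, adjusted p = 0.363 in Dicer and -0.20 ± 0.20, adjusted p = 0.438 in Dgcr8 iKO).

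Among the 6 genes of the SREBP-2 sensor, the factor itself and Insig1 fell with the enzymes, while Scap, Insig2 and the proteases Mbtps1 and Mbtps2 had log2 fold changes between -1.03 and 0.17 in the 4 comparisons with controls. Srebf2, which encodes SREBP-2, gave 116, 124 and 112 CPM in uncrushed, 129, 159.8, 147 and 138 in contralateral and 28.3, 24.8, 23.4 and 19 in crushed SNs. Srebf2 gave 145, 139 and 175 CPM in Dicer control, 101, 63.3 and 63 in Dicer iKO, 160.2, 208 and 137 in Dgcr8 control and 44, 57.9 and 56 in Dgcr8 iKO SNs. Crushed and mutant libraries lay below all their controls, and it was called lower in both crush comparisons and both mutants (-2.19 ± 0.12, adjusted p = 1.34e-08 against uncrushed, -1.01 ± 0.20, adjusted p = 0.0137 in Dicer and -1.67 ± 0.17, adjusted p = 2.66e-05 in Dgcr8 iKO). Insig1, itself a known SREBP target, stood at 84.1, 107 and 102 CPM in uncrushed, 125, 143, 109.7 and 104 in contralateral and 10.7, 13.4, 10.3 and 10.6 in crushed SNs. Insig1 stood at 149, 208 and 196 in Dicer control, 106, 60 and 62.8 in Dicer iKO, 219, 188 and 285 in Dgcr8 control and 50.6, 76.1 and 72.9 in Dgcr8 iKO SNs. It was called lower in all 4 comparisons, without overlap (-3.01 ± 0.12, adjusted p = 9.33e-10 against uncrushed, -1.27 ± 0.24, adjusted p = 0.0112 in Dicer and -1.80 ± 0.20, adjusted p = 4.01e-05 in Dgcr8 iKO).

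Insig2, whose product also binds SCAP but which is not among the classical SREBP targets, ranged from 14.2 to 18.0 CPM in uninjured and 11.7 to 13.1 in crushed SNs and fell slightly against contralateral (-0.37 ± 0.10, adjusted p = 0.00531) but did not pass the test against uncrushed SNs (-0.25 ± 0.12, adjusted p = 0.0769). Against uncrushed SNs Insig2 passed with at least 10 counts in every sample and with all groups in one fit (adjusted p = 0.013 to 0.0141). Its decrease against contralateral SNs was lost with no filter on counts (adjusted p = 0.267). In the mutants Insig2 was at 0.17 ± 0.14 in Dicer and 0.15 ± 0.13 in Dgcr8 iKO, neither past the threshold (adjusted p = 0.43 and 0.38). Scap fell after crush (-0.69 ± 0.10, adjusted p = 0.000101 against uncrushed, -1.03 ± 0.11, adjusted p = 1.71e-06 against contralateral) and, by less, in the Dgcr8 iKO (-0.54 ± 0.16, adjusted p = 0.0156, lost without Dgcr8 iKO replicate 1, adjusted p = 0.0528), and did not pass in the Dicer iKO (-0.26 ± 0.12, adjusted p = 0.167). Mbtps1, the site-1 protease, fell after crush by less than 2-fold (-0.49 ± 0.10, adjusted p = 0.00132 against uncrushed, lost with no filter on counts, adjusted p = 0.135) and stood at -0.06 ± 0.11 in Dicer and -0.05 ± 0.14 in Dgcr8 iKO. Mbtps2, the site-2 protease, counted 18.8, 22.8 and 22.4 CPM in uncrushed, 19.5, 22.2, 21.1 and 17.8 in contralateral and 20.9, 20.3, 19.4 and 19.5 in crushed SNs. Mbtps2 counted 18.2, 18 and 24.7 in Dicer control, 19.7, 22.6 and 20.9 in Dicer iKO, 24.2, 26.8 and 23.8 in Dgcr8 control and 19.8, 21.4 and 30.2 in Dgcr8 iKO SNs. Its groups overlapped in every comparison, with log2 fold changes from -0.07 to 0.05 and none past the threshold. Mbtps2 shares 2867 exon bases with Yy2 on the same strand, at a mean of 1.05 CPM in the crush and 3.80 CPM in the iKO libraries.

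The transport and turnover genes differed in direction. Stard4, a cytosolic sterol carrier under SREBP-2 control, stood at 44.6, 55 and 52.6 CPM in uncrushed, 65.6, 72.2, 58.6 and 54.3 in contralateral and 9.14, 10.3, 8.06 and 8.76 in crushed SNs. Stard4 stood at 43.8, 48.9 and 43.4 in Dicer control, 26.6, 12.6 and 15.9 in Dicer iKO, 47, 58.9 and 50.6 in Dgcr8 control and 14.7, 20.3 and 16.7 in Dgcr8 iKO SNs. It fell with the enzymes in all 4 comparisons, without overlap (-2.37 ± 0.11, adjusted p = 4.8e-09 against uncrushed, -1.29 ± 0.25, adjusted p = 0.0124 in Dicer and -1.59 ± 0.15, adjusted p = 1.74e-05 in Dgcr8 iKO). Mylip, an E3 ligase that marks lipoprotein receptors for degradation and is a target of the oxysterol receptor LXR, gave 40.4, 50.3 and 44.4 CPM in uncrushed, 52.8, 56.7, 51.8 and 48.6 in contralateral and 88.4, 85.7, 90.2 and 68.8 in crushed SNs. Mylip gave 70.1, 82 and 76.2 CPM in Dicer control, 97, 120.4 and 126 in Dicer iKO, 66.1, 68.8 and 74.2 in Dgcr8 control and 147, 101 and 135 in Dgcr8 iKO SNs. Every crushed and mutant library lay above all its controls, and Mylip rose in all 4 comparisons by just under 2-fold or less (0.99 ± 0.11, adjusted p = 9.68e-06 against uncrushed, 0.68 ± 0.09, adjusted p = 1.17e-05 against contralateral, 0.59 ± 0.13, adjusted p = 0.0172 in Dicer and 0.87 ± 0.15, adjusted p = 0.000826 in Dgcr8 iKO). The Dicer rise of Mylip was lost without Dicer control replicate 2, Dicer iKO replicate 2 or Dicer iKO replicate 3 (adjusted p = 0.0543 to 0.0776). Macrophage markers rose in the same libraries, with a summed level of 122 to 129.7 CPM in uncrushed, 395 to 740.5 in crushed, 231 to 688 in Dicer control, 1209.5 to 1969 in Dicer iKO, 247 to 283 in Dgcr8 control and 893 to 1999.9 in Dgcr8 iKO SNs, and their part in the Mylip level was not tested.

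Npc1 and Npc2 together move cholesterol out of the lysosome. Npc1 rose slightly after crush (0.57 ± 0.09, adjusted p = 0.000202 against uncrushed, 0.27 ± 0.07, adjusted p = 0.00469 against contralateral), with crushed libraries at 110.1 to 130.4 CPM above the uninjured ones at 80.0 to 108.3, and did not pass the test in the mutants (0.41 ± 0.18, adjusted p = 0.148 in Dicer and 0.06 ± 0.15, adjusted p = 0.773 in Dgcr8 iKO). Npc1 shares 511 exon bases with Rmc1 on the opposite strand, at a mean of 14.7 CPM in the crush and 19.5 CPM in the iKO libraries. Npc2 fell slightly after crush (-0.39 ± 0.14, adjusted p = 0.0232 against uncrushed, -0.52 ± 0.12, adjusted p = 0.00163 against contralateral) but rose in the Dicer iKO (0.61 ± 0.14, adjusted p = 0.0207), where its 3 libraries at 237 to 328 CPM stood above controls at 185 to 199. In the Dgcr8 iKO Npc2 stood at 0.37 ± 0.15, adjusted p = 0.075. The decrease of Npc2 against uncrushed SNs was lost with no filter on counts, with a replicate block and without crushed replicate 4 or any single uncrushed replicate (adjusted p = 0.053 to 0.412), and its Dicer rise with a replicate block and without Dicer control replicate 2, Dicer iKO replicate 2 or Dicer iKO replicate 3 (adjusted p = 0.0765 to 0.0891). The crush effect on Npc2, taken against contralateral SNs, differed from the mutant effects, with a crush minus Dicer difference of -1.09 ± 0.19, adjusted p = 0.000253 and a crush minus Dgcr8 difference of -0.84 ± 0.19, adjusted p = 0.0022.

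Setting the acute change beside the slow one, the crush effect against contralateral SNs was lower than the Dgcr8 effect for 22 members and higher for 1, by an interaction test at an adjusted p of at most 0.05, where 16.4% of 14738 genes were lower and 21.0% higher. Against the Dicer effect it was lower for 24 members and higher for 1, where 17.3% of 14626 genes were lower and 23.1% higher. Of the 24, Insig2 lost its difference to the Dicer effect in 4 alternatives, uncrushed in place of contralateral SNs among them (adjusted p = 0.0505 to 0.086). Ebp, not among the 24, differed from the Dicer effect in 5 alternatives (adjusted p = 0.0288 to 0.0438). The widest gaps to the Dgcr8 effect were those of Hmgcs1 (-3.23 ± 0.30), Lss (-2.79 ± 0.21), Idi1 (-2.52 ± 0.23) and Mvd (-2.24 ± 0.32). Gaps of Fdft1 (-1.04 ± 0.23), Msmo1 (-0.79 ± 0.20) and Sqle (-0.71 ± 0.18) were smaller, and for Pmvk the difference did not pass the test (-0.31 ± 0.23, adjusted p = 0.314). The 7 members with no difference called to the Dgcr8 effect were Pmvk, Ggps1, Ebp, Scap, Mbtps2, Npc1 and Mylip. Sqle no longer differed when uncrushed SNs took the place of contralateral SNs (adjusted p = 0.0923), nor did Srebf2 (adjusted p = 0.0517) or Insig2 (adjusted p = 0.0502 to 0.0916 here and with no filter on counts), while Scap differed in 7 alternatives and Npc1 in 2. The labels name different library kits for the crush and iKO experiments, so a difference between these effects cannot be told apart from one between kits or experiments.

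Across the 30 members the log2 fold changes of crush against contralateral and of the Dgcr8 iKO had a Pearson correlation of 0.85 and a Spearman correlation of 0.79, beside a Pearson correlation of 0.73 over all 12914 genes in both tests; for the Dicer iKO these were 0.79, 0.75 and 0.65 over 12738 genes. These are descriptions across genes that share libraries and are not independent, with no test. The enzymes Hmgcs1, Idi1 and Lss had the lowest values after crush, whereas Sc5d, Fdft1, Msmo1 and Idi1 had the lowest in the Dgcr8 iKO.

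**Figure D3:**
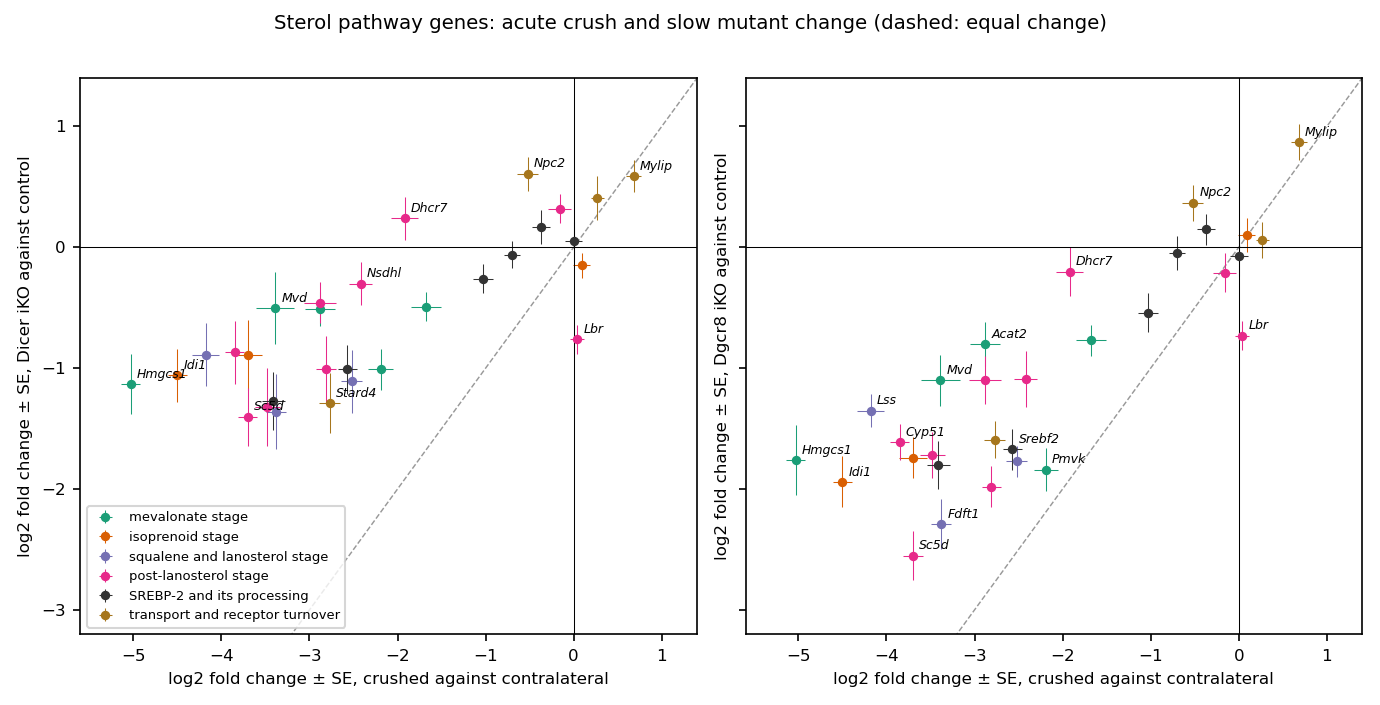
Log2 fold change of each member in crushed against contralateral SNs (x axis) and in the iKO against control SNs (y axis; Dicer left, Dgcr8 right), with standard errors as bars, colours for the roles and a dashed line of equal change. Most enzymes lie above the dashed line, with a larger decrease after crush, Pmvk lies near it in the Dgcr8 panel, and Lbr lies below it.

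The mutants themselves were compared by the difference of their effects. No member passed the test (Dgcr8 minus Dicer, edgeR), where 0.0148% of 13552 genes, 2 in all, did. Of the 30, 26 had the lower value in the Dgcr8 iKO, with a member median of -0.49 beside -0.005 over all genes. An unadjusted p under 0.05 was reached by 12 members, all of them lower, and by 1861 of the 13552 genes. With a replicate block 6 members reached it. DESeq2 called 235 genes and none of the members. The lowest adjusted p was that of Sc5d, at -1.15 ± 0.34, adjusted p = 0.186. The larger count of calls in the Dgcr8 iKO therefore does not show that the mutants differ.

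Uncrushed and contralateral SNs served as 2 controls of the crush. No member was called between them, and 0.0% of 17722 genes were (0 genes by edgeR, with 3165 at an unadjusted p under 0.05; DESeq2 called 20 genes and no member). Of the 30 members, 28 stood higher in the contralateral SNs and 9 had an unadjusted p under 0.05, all of them higher, with Srebf2 at 0.28 ± 0.09, Fdft1 at 0.33 ± 0.11 and Stard4 at 0.31 ± 0.11. The member median of this comparison was 0.19 on the log2 scale, between 0.10 and 0.23 with any replicate left out, beside -0.018 over all genes. None of these passed adjustment (adjusted p = 0.165 for Srebf2, the lowest).

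Levels between genes were compared per length, as the deposited FPKM summed over a gene's transcripts and divided by the library's TMM factor, in group means ± SD. In uncrushed SNs the highest were Hmgcs1 at 351 ± 37.9, Msmo1 at 166 ± 28.1, Fdps at 117 ± 8.92, Idi1 at 93.8 ± 8.93 and Sc5d at 88.8 ± 10.3, and the lowest was Ggps1 at 6.7 ± 0.985. Idi1 and Sc5d, neighbours in this order, did not differ beyond their spread. In crushed SNs Mylip at 28.2 ± 3.33, Msmo1 at 27.7 ± 5.23, Npc1 at 24.2 ± 1.84 and Npc2 at 19.5 ± 4.16 led, with Hmgcs1 far lower at 11.2 ± 0.984 and Mvd last at 1.41 ± 0.267. Mylip and Msmo1 did not differ beyond their spread. In Dgcr8 control SNs Hmgcs1 led at 382 ± 60.7, before Fdps at 179 ± 27 and Msmo1 at 142 ± 15.7; in the Dgcr8 iKO Hmgcs1 at 113 ± 54.2 and Npc2 at 94.8 ± 14.3 did not differ beyond their spread, with Fdps at 53.7 ± 11.5.

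**Figure D4:**
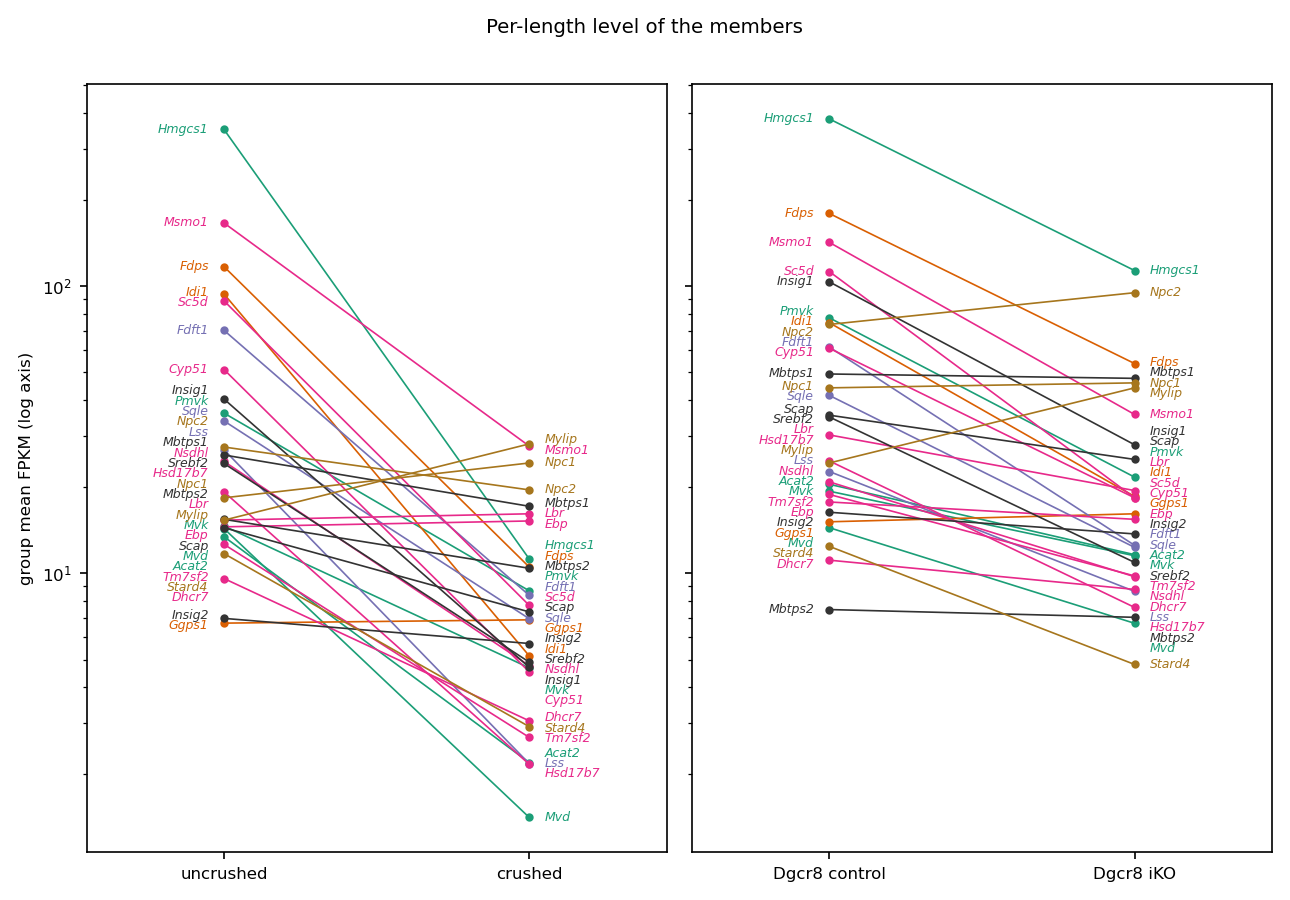
Group mean FPKM (log axis) of the 30 members in uncrushed and crushed SNs on the left and in Dgcr8 control and Dgcr8 iKO SNs on the right, each line a gene coloured by role, with names spread to avoid overlap. Hmgcs1 drops from 351 to 11.2 after crush and from 382 to 113 in the Dgcr8 iKO, and the lines of Mylip and Npc1 rise after crush.

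Of the 9 myelinating SC markers, 9 were called lower in both crush comparisons, 5 in the Dgcr8 iKO and 0 in the Dicer iKO. Against uncrushed SNs the median log2 value of the 9 myelinating SC markers was -4.17 and that of the 20 enzymes -2.58; in the Dgcr8 iKO the medians were -1.08 and -1.48, and in the Dicer iKO -0.52 and -0.88. The mean log2(CPM + 1) of the enzymes minus that of the markers was -4.43, -4.38 and -4.38 in uncrushed, -4.20, -4.32, -4.51 and -4.38 in contralateral and -2.52, -2.10, -2.17 and -2.14 in crushed SNs. It was -4.80, -4.78 and -5.11 in Dicer control, -4.93, -5.03 and -5.14 in Dicer iKO, -4.74, -4.76 and -4.70 in Dgcr8 control and -5.14, -5.00 and -4.75 in Dgcr8 iKO SNs. Relative to myelin genes, enzyme levels were thus higher in all 4 crushed libraries than in any uncrushed or contralateral library, while mutant and control libraries overlapped for both Dicer and Dgcr8. Whether the loss of myelinating cells or of myelin gene RNA accounts for the enzyme decrease was not tested.

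**Figure D5:**
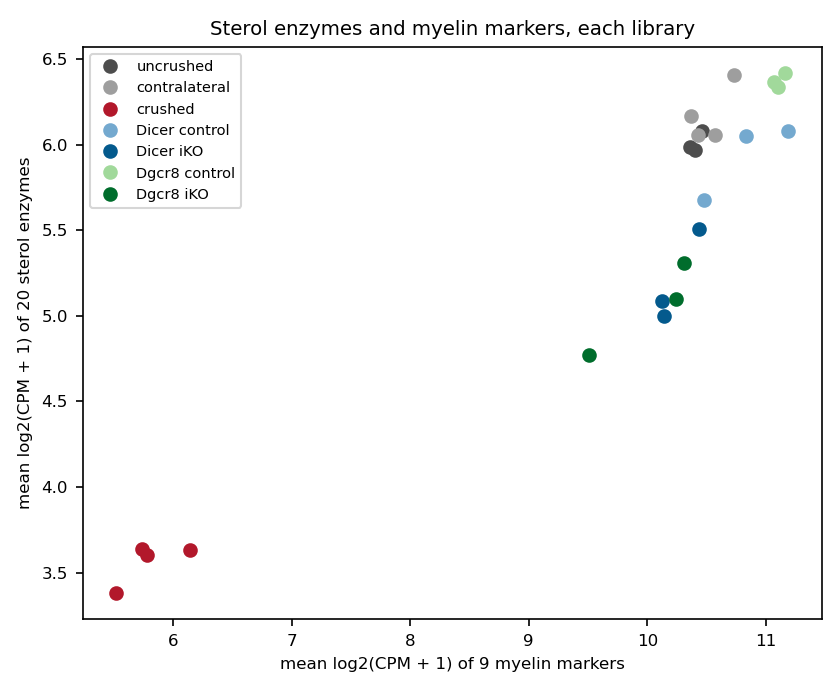
Mean log2(CPM + 1) of 9 myelin markers (x axis) and of the 20 sterol enzymes (y axis) in each of the 23 libraries, coloured by group. The crushed libraries lie alone at the lower left, the mutant libraries lie below their controls, and Dicer control replicate 1 lies nearest to the mutants among the iKO controls. Library kits differ between the crush and iKO experiments, so positions are compared only within an experiment.

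Other genes of the pathway were described from lists that hold 26 genes, of which 6 were called higher and 4 lower against uncrushed SNs, 5 and 5 against contralateral SNs, 2 and 1 in the Dicer iKO and 2 and 3 in the Dgcr8 iKO. Over all genes tested the shares called higher and lower were 15.3% and 21.1%, 14.6% and 13.6%, 7.37% and 1.64%, and 13.4% and 6.99%, and the crush counts lie near that background. Of 6 genes of esterification, hydrolysis and oxysterols, 3 were called higher and 1 lower in both crush comparisons. Soat1, which esterifies cholesterol for storage, rose by 3.04 ± 0.13 on the log2 scale against uncrushed SNs, by 2.48 ± 0.20 in the Dgcr8 iKO and by 1.78 ± 0.23 in the Dicer iKO. Nceh1, a cholesteryl ester hydrolase, rose by 3.54 ± 0.13 against uncrushed SNs and by 1.28 ± 0.22 in the Dgcr8 iKO. In the Dicer iKO Nceh1 rose by less than 2-fold (0.72 ± 0.19, adjusted p = 0.0328). Lipa, the lysosomal hydrolase, rose by 2.28 ± 0.14 against uncrushed SNs and by 1.16 ± 0.13 in the Dicer iKO. Of the 6 genes, 3 rose in the Dgcr8 iKO and 2 were called higher there. Cyp7b1, an oxysterol hydroxylase, fell after crush (log2 fold change -2.04 ± 0.15 against uncrushed). Adjusted p-values of these calls ran up to 0.00377. Macrophages also express Soat1, Nceh1 and Lipa, macrophage markers rose in the same libraries, and their part was not tested.

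Of 3 acetyl-CoA supply genes, Acss2, acetyl-CoA synthetase, and Slc25a1, the citrate carrier, were called lower after crush (-2.89 ± 0.12 and -2.58 ± 0.11 against uncrushed) and in the Dgcr8 iKO (-1.79 ± 0.19 and -1.39 ± 0.17), and Acly, ATP citrate lyase, was called lower against contralateral SNs (-1.07 ± 0.10) but not in the other comparisons. All 3 had an adjusted p of at most 0.05 in the Dicer iKO without reaching 2-fold. Of 10 isoprenoid branch genes, Fntb, a farnesyltransferase subunit, was called lower in all 4 comparisons (-1.67 ± 0.13 against uncrushed, -1.02 ± 0.19 in Dicer and -1.02 ± 0.17 in Dgcr8 iKO), and Rabggtb, of Rab geranylgeranylation, was called higher in both crush comparisons (1.29 ± 0.15 against uncrushed). Nus1, of dolichol synthesis, was called higher against uncrushed SNs (1.13 ± 0.11). Of 7 genes for the sterol-driven degradation of pathway enzymes, Erlin1 was called higher after crush (1.29 ± 0.11 against uncrushed), and none was called in a mutant.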

How the data were processed

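RNA from whole sciatic nerve was sequenced in 23 libraries. According to the methods, the authors checked reads with FastQC, trimmed them with Trimmomatic, aligned them with STAR to mouse GRCm38 and quantified transcripts with RSEM; the strand setting is not given in the sources used here. The labels name different library kits for the crush and iKO experiments, and the methods name the one of the iKO libraries only. The deposited expected counts per transcript, estimated by the authors with RSEM, were summed per gene and rounded, and the deposited FPKM, scaled to length and depth, were summed per gene and divided by the TMM factor. CPM were computed from the counts with TMM factors over all libraries of an experiment. Nothing in the labels says more on how replicates of a group were separate than that they are separate samples, so p-values measure the spread between these samples. Of 27 pairs of replicates none agreed within sampling noise (chi-square per degree of freedom 3.86 to 40.3).

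Groups were compared with edgeR 4.0.16 (quasi-likelihood test, filterByExpr with a minimum count of 10, TMM) in R 4.3.3 on the libraries of the groups compared, with Benjamini-Hochberg adjustment over all genes tested. Differences between effects were interaction contrasts, called at an adjusted p of at most 0.05. The tests were checked on simulated data: of 200 genes changed by 2 on the log2 scale, 200 were recovered for crushed against contralateral SNs (17123 genes), 200 for the Dgcr8 iKO (13270 genes), 190 for the Dgcr8 minus Dicer effect (13442 genes) and 194 for the crush minus Dgcr8 effect (14374 genes), with 6, 7, 3 and 11 false calls. The changed genes were well expressed, raised and lowered in equal numbers, and every gene had the same dispersion. Changes near 2-fold and the Dicer iKO against its control were not simulated, so recovery there is not known. Alternatives were RLE size factors, no filter or at least 10 counts in every sample, DESeq2 1.42.0, a replicate block, all groups in one fit, each replicate left out, other call limits, and uncrushed in place of contralateral SNs.

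The members, marker lists and other gene lists were chosen with earlier results of these data known. Values in every library were printed for the first and last enzyme of each stage, for the members with the lowest and highest change against uncrushed SNs in each group of roles, and for each member called in a mutant. Other pathway genes were named only when called. Promoter sequences were RefSeq's (GRCm38.p6). Intervals from 3 counts cover counting error only.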

Additional observations from a re-analysis of the deposited data

Results flagged for a closer look

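In 60 groups of 4 libraries (the 30 members in crushed and in contralateral SNs), a library lay far from the other 3, with a gap over the range above Dixon's critical value for 4 samples, in 4 cases, where chance gives about 1 in 20 groups. Hmgcs1 was lowest in crushed replicate 4, at 30.4 CPM (gap over range 0.885), and Insig1 highest in crushed replicate 2, at 13.4 CPM (0.847). Mvk and Mvd were both highest in contralateral replicate 2, at 27.9 CPM (0.833) and 35.2 CPM (0.916). Contralateral replicate 2 also had the highest summed level of the 20 enzymes, 3373 CPM, and of the myelin markers among the uninjured SNs of the crush experiment.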

How the results depend on the processing

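Counts of members called lower stayed within 1.5 times under every alternative for the crush and Dgcr8 comparisons; in the Dicer iKO the count of 11 fell to 2 with a replicate block and to 2 at an adjusted p of at most 0.01, and ranged from 1 to 14 with single replicates left out. With no limit on fold, 2 members were higher against uncrushed SNs, 2 against contralateral SNs, 2 in the Dicer iKO and 1 in the Dgcr8 iKO. Mylip, at the limit of 2-fold, made the count of members higher against uncrushed SNs 1 with no filter on counts and 1 with a replicate block, and 0 to 1 with a replicate left out (1 without crushed replicate 4 or uncrushed replicate 2). The count higher in the Dgcr8 iKO was 0 to 1 with a replicate left out (1 without Dgcr8 iKO replicate 2), and the count higher for crush minus Dgcr8 effect was 2 with uncrushed in place of contralateral SNs and 1 to 2 with a replicate left out (2 without Dgcr8 iKO replicate 3). Replicate numbers showed no clear pairing. Deviations of same-numbered libraries correlated at -0.193 to 0.219, a value under 0.1 in at least 1 pair of each comparison. With 3 or 4 pairs per comparison, this cannot exclude pairing. According to the methods, the nerve of the uninjured side was harvested too, so crushed and contralateral SNs likely share animals. The labels do not tie libraries to animals, and the main crush test used no block. The cause of the changes in the counts was not tested.

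Several log2 fold changes near 0, none past the threshold, changed sign. With at least 10 counts in every sample Mbtps2 stood at -0.09 against uncrushed SNs, Lbr at -0.01 against contralateral SNs and Ggps1 at -0.04 for crush minus Dgcr8 effect; Ggps1 stood at -0.05 there with RLE factors and -0.05 with DESeq2, and Mbtps2 at -0.08 against uncrushed SNs with all groups in one fit. With uncrushed in place of contralateral SNs Npc1 stood at 0.13 for crush minus Dicer effect and Mylip at 0.11 for crush minus Dgcr8 effect. With a replicate left out the ranges were -0.02 to 0.12 for Mbtps2 against uncrushed SNs, -0.02 to 0.08 for Lbr against contralateral SNs, -0.15 to 0.01 for Mbtps1 in the Dicer iKO, -0.03 to 0.22 for Mbtps2 in the Dicer iKO, -0.35 to 0.02 for Dhcr7 in the Dgcr8 iKO, -0.11 to 0.07 for Mbtps1 in the Dgcr8 iKO, -0.27 to 0.04 for Mbtps2 in the Dgcr8 iKO, -0.05 to 0.13 for Npc1 in the Dgcr8 iKO, -0.31 to 0.10 for Npc1 for crush minus Dicer effect, -0.12 to 0.11 for Ggps1 for crush minus Dgcr8 effect, -0.12 to 0.20 for Ebp for crush minus Dgcr8 effect and -0.09 to 0.33 for Mbtps2 for crush minus Dgcr8 effect.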
